A study of Mus musculus with 4 samples.

Results

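The genes described here are 10 matricellular genes, chosen by symbol from the 32286 features of 1 count table: Postn, Tnc, Thbs1, Thbs2, Thbs3, Thbs4, Comp, Ccn1, Ccn2 and Ccn3. All 10 were among the features. Matricellular proteins are secreted into the extracellular matrix but act mainly on how cells sense and remodel that matrix, through integrins, growth factors and matrix enzymes, rather than as its load-bearing fibres. Periostin, encoded by Postn, binds collagen and integrins and is widely used as a marker of activated fibroblasts and of developing heart valves. Tenascin-C, encoded by Tnc, appears in remodelling tissue. Thrombospondins 1 and 2 (Thbs1, Thbs2) are trimers that bind CD36 and CD47, and thrombospondin 1 can activate latent TGF-beta. Thrombospondins 3 and 4 (Thbs3, Thbs4) and the cartilage oligomeric matrix protein (Comp) are pentamers. The CCN genes encode CYR61 (Ccn1), connective tissue growth factor (Ccn2) and NOV (Ccn3), of which the first and second are widely used readouts of the YAP and TEAD pathway.

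The cells came from the stroke group, with 2 mouse hearts taken 1 month after stroke, and the control group, with 2 hearts under the control condition. Both groups carried the Ccr2creERT2-Ai14 strain: tamoxifen-inducible Cre driven from Ccr2, a chemokine receptor gene of monocytes, and a tdTomato allele that Cre switches on. Cre itself is thus limited to cells that express Ccr2. Ages and Cre induction were not given in the sources used here. Interstitial cells were freed by 30 min of enzymatic digestion, strained to hold back cardiomyocytes, sorted as live nucleated cells and measured by droplet single-cell RNA sequencing. The 4 libraries in the table are not tied to a heart, so no value below belongs to stroke or to control, and no test was run.

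Levels are UMIs, the molecular tags that count captured RNA molecules, summed over a cell class and given per 1e+06 UMIs of that class (CPM). The 37465 analysed cells, of 39731 barcodes, came from libraries of 31955157 to 45834980 UMIs, with library medians of 2568 to 3484 UMIs per cell. The 18 classes with at least 50 cells were named from marker genes and are written as X-like, and 29 cells were cardiomyocyte-like. None of the 10 genes was used to build the clusters, nor were the early response genes described below, except Nr4a1. Of the barcode sequences, 161 occurred in 2 libraries. Intervals are 95% intervals for counting error only, and ranges run over the 4 libraries. B cell-like cells, which should lack these genes, set the background: each gene lay there at 0 to 3.89 CPM, the highest being Thbs3.

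The promoters of Postn and Ccn1 are shown because both genes were high in endocardial-like cells. They are RefSeq sequences on build GRCm38.p6, the 250 bases before the start of transcription, and capitals mark the motif matches named after them. Of the 10 genes, 6 had RefSeq promoter entries: Postn, Tnc, Thbs2, Thbs3, Thbs4 and Ccn1. For Postn, the start used lies 2 bases from an annotated GENCODE start, on the forward strand (chr3:54360857-54361106), and for Ccn1 the start lies 4 bases from one, on the reverse strand (chr3:145649986-145650235).
Postn: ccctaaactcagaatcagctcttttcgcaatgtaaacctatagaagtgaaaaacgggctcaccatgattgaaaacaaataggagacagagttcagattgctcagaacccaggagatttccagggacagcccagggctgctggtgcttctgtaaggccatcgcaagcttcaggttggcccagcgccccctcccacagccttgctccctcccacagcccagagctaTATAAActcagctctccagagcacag
Ccn1: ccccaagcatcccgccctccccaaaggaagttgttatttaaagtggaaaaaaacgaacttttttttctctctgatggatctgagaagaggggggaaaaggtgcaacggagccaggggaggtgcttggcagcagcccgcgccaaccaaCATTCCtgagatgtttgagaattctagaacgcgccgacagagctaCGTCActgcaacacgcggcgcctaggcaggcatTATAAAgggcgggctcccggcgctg
Both strands were searched for a TATA box (TATAAA), the TEAD core (GGAATG), the CRE core (TGACG), an AP-1 site (TGACTCA or TGAGTCA) and the CArG box. From the start used, Postn held 1 TATA box at positions -26 to -21. Another RefSeq start of Postn, 1842 bases from the nearest GENCODE start, held none of these motifs. Ccn1 held 1 TATA box at -25 to -20, 1 TEAD core on the other strand at -103 to -98 and 1 CRE core on the other strand at -58 to -54, with no overlap between them. Over 32851 promoters of the same length, 12.4% held a TATA box, 12.6% a TEAD core, 17.8% a CRE core, 4.46% an AP-1 site and 1.47% a CArG box.

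On build GRCm38 the GENCODE annotation places Postn (chr3:54361109-54391037), Thbs3 (chr3:89215180-89226837) and Ccn1 (chr3:145646976-145649981) on chromosome 3. Thbs1 lies at chr2:118111876-118127133, Tnc at chr4:63959785-64047015, Comp at chr8:70373558-70382066 and Ccn2 at chr10:24595442-24598683. Thbs4 lies at chr13:92751590-92794818, Ccn3 at chr15:54745702-54754039 and Thbs2 at chr17:14665500-14694235. Thbs3 lies wholly inside Mtx1, a gene of the opposite strand, and the strand setting of the counting was not given in the sources used here, so reads of the pair may not be separated. Mtx1 stood at 30.6 CPM in fibroblast-like and 28.8 CPM in capillary-like or general endothelial cells, where Thbs3 stood at 37.7 and 1.76 CPM. Over all classes Mtx1 ranged from 7.03 to 40.8 CPM. Ccn2 is overlapped over 1667 bases by Gm15270, also on the opposite strand. Gm15270 was highest in smooth muscle-like (90.4 CPM), pericyte-like (86.2 CPM) and Schwann-like cells (66.9 CPM), which are among the classes high in Ccn2, and stood at 8.53 CPM in fibroblast-like and 6.94 CPM in endocardial-like cells. Its part in the Ccn2 levels was not tested. On the opposite strand, 8030451A03Rik also overlaps Tnc over 67162 bases and Gm29233 overlaps Thbs1 over 597 bases. Of these, 8030451A03Rik was at most 3.35 CPM, in Schwann-like cells from 1 UMI, and Gm29233 had no UMI in any of the classes.

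**Figure D1:**
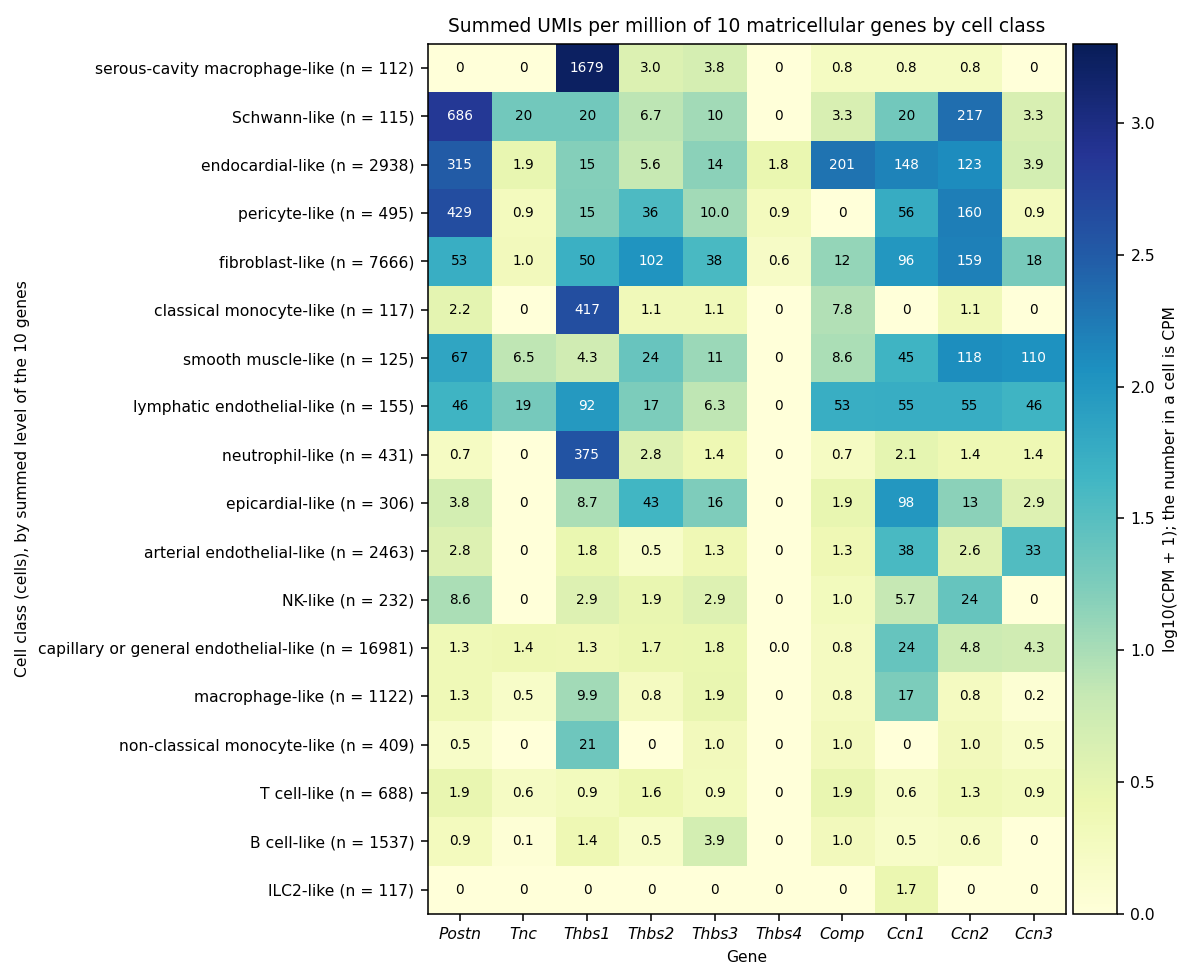
Level of each of the 10 genes (columns) in each of the 18 cell classes (rows, with the number of cells, ordered by the summed level of the 10 genes). Colour is log10(CPM + 1) and the number in each cell is the CPM. Thbs1 reaches 1679 CPM in serous-cavity macrophage-like cells, Postn is highest in Schwann-like, pericyte-like and endocardial-like cells, and Comp stands out in endocardial-like cells at 201 CPM.

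Among the 18 named classes, Postn was highest outside fibroblast-like cells. It reached 686 CPM (595 to 786) in Schwann-like cells, the glia of the cardiac nerves, 429 CPM (391 to 470) in pericyte-like cells, which wrap capillaries, and 315 CPM (306 to 325) in endocardial-like cells, which line the chambers. Fibroblast-like cells held 52.6 CPM (50.6 to 54.6). In Schwann-like cells libraries 1 to 4 gave 632, 586, 428 and 929 CPM, from 205 UMIs in all and with only 8 cells in library 3. In pericyte-like cells they gave 390, 418, 479 and 495 CPM, and in endocardial-like cells 284, 320, 317 and 336 CPM. In fibroblast-like cells they gave 48.7, 60.4, 55.9 and 48.6 CPM. The ranges of Schwann-like and pericyte-like cells overlapped, that of pericyte-like cells lay wholly above that of endocardial-like cells, and fibroblast-like cells were lower than all of these in every library. Smooth muscle-like cells (66.7 CPM), fibroblast-like cells and lymphatic-like cells (46.2 CPM) had overlapping library ranges.

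Because endocardial-like and fibroblast-like cells were many, they held most Postn UMIs, with 41.6% and 28.9% of those in all analysed cells. Pericyte-like cells held 4.98% and Schwann-like cells 2.16%. Shares of UMIs held by a class have the same base below, whereas those held by sub-clusters refer to the cells that were divided. A further 1900 of the 9497 UMIs lay in 704 unnamed cells whose best marker list was the fibroblast list, and with these cells added the fibroblast-like level was 84.5 CPM (61.8 to 107 CPM over the libraries). The unnamed cells were not ranked among the classes. They include 207 of the 215 cells of sub-cluster F13, described below, which held Postn at 1383 CPM. A Postn UMI was seen in 59.1% of Schwann-like, 48.5% of pericyte-like, 32.8% of endocardial-like, 8.75% of fibroblast-like and 0.455% of B cell-like cells, at median depths of 2104, 2048, 3824, 6568 and 4025 UMIs. After thinning each cell to 1000 UMIs, which left out 9, 55, 76, 31 and 40 shallower cells, the shares were 42.5%, 31.8%, 16.5%, 2.95% and 0.134%, in the same order. The 7 fibroblast markers summed to 3432 CPM in Schwann-like and 3117 CPM in pericyte-like cells and to 40628 CPM in fibroblast-like cells, and the part of fibroblast transcripts in these Postn levels was not tested. Pericyte-like cells held 6.44 times (4.47 to 9.58) the Postn level of smooth muscle-like cells, the other mural class.

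**Figure D2:**
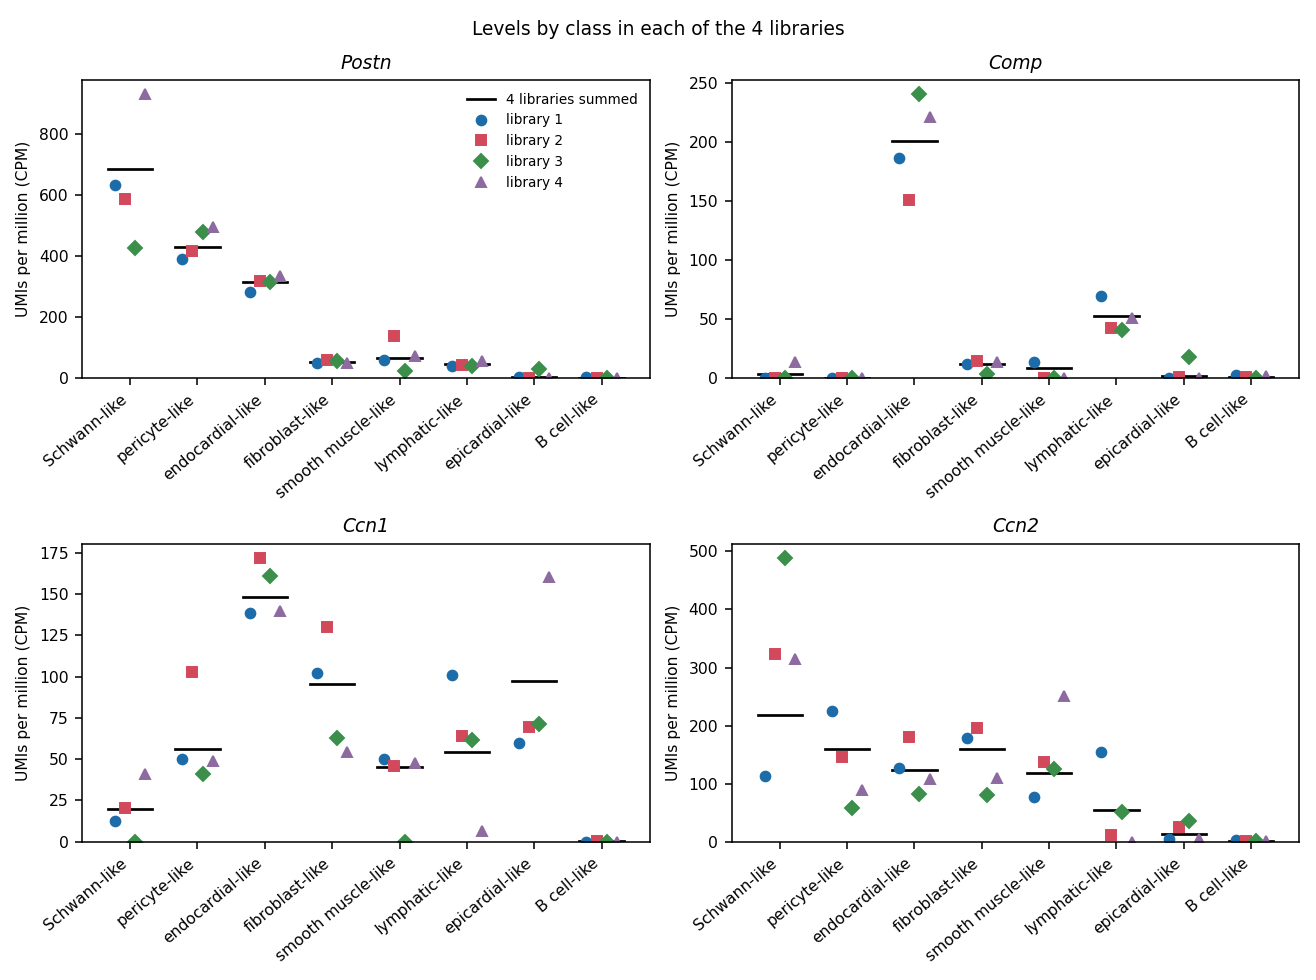
CPM of Postn, Comp, Ccn1 and Ccn2 (y axis of each panel) in 8 cell classes (x axis). Points are the 4 libraries and the bar is the level over the 4 libraries summed. Postn in pericyte-like cells (390 to 495 CPM) lies above endocardial-like cells (284 to 336 CPM) in each library, whereas Ccn2 ranges overlap among Schwann-like, pericyte-like, endocardial-like and fibroblast-like cells.

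Tnc was scarce in these hearts, with 168 UMIs in all analysed cells. Capillary-like or general endothelial cells held 56 of them (1.41 CPM) and fibroblast-like cells 54 (1.03 CPM). Of the 24 in endocardial-like cells, 21 lay in a single cell. Schwann-like (20.1 CPM, 6 UMIs) and lymphatic-like cells (18.9 CPM, 9 UMIs) had higher levels with intervals of 7.37 to 43.7 and 8.65 to 35.9 CPM, and were not distinguishable at this depth.

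Thbs1 was highest in 3 myeloid classes. Serous-cavity macrophage-like cells, the type that fills the pericardial and pleural spaces, held 1679 CPM (1610 to 1750), and 97.3% of them carried a Thbs1 UMI, against 0.716% of B cell-like cells, at median depths of 11618.5 and 4025 UMIs. These 112 cells came from libraries 2 (76 cells), 4 (34 cells) and 3 (2 cells), at 1684, 1763 and 524 CPM, and none came from library 1. Classical monocyte-like cells followed at 417 CPM (375 to 461) and neutrophil-like cells at 375 CPM (344 to 408). Libraries 1 to 4 gave 407, 382, 416 and 503 CPM in classical monocyte-like cells and 400, 529, 362 and 208 CPM in neutrophil-like cells, so these ranges overlapped. Without library 2 fewer than 50 serous-cavity macrophage-like cells were left and classical monocyte-like cells were the highest class, at 426 CPM.

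Other myeloid classes held little Thbs1, with 21.4 CPM in non-classical monocyte-like cells and 9.86 CPM in macrophage-like cells. Outside the myeloid classes lymphatic-like cells reached 92.5 CPM (67.2 to 124) and fibroblast-like cells 50.1 CPM (48.2 to 52.0), and their library ranges overlapped. By count, fibroblast-like cells held 39.4% and serous-cavity macrophage-like cells 33.4% of Thbs1 UMIs. Platelets store thrombospondin 1, and the 6 platelet markers summed to 16.7 CPM in serous-cavity macrophage-like, 2.23 CPM in classical monocyte-like and 18.3 CPM in neutrophil-like cells, against 0.628 CPM in B cell-like cells. In classical monocyte-like cells 4 of the 6, Gp9, Gp1bb, Itga2b and Tubb1, were at 0 UMIs. The early response list, 17 genes such as Fos and Egr1 that digestion can switch on, stood at 17128 CPM in serous-cavity macrophage-like, 14624 CPM in neutrophil-like and 7101 CPM in classical monocyte-like cells. It was also at 12053 CPM in ILC2-like cells, where no Thbs1 UMI was seen (up to 5.20 CPM allowed), and at 9843 CPM in macrophage-like cells. Its part in the Thbs1 levels was not tested.

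Thbs2 and Thbs3 were the members with their highest level in fibroblast-like cells. Thbs2 stood at 102 CPM (98.9 to 104) in fibroblast-like cells, which held 89.9% of its UMIs, and at 43.3 CPM in epicardial-like, 36.3 CPM in pericyte-like and 5.58 CPM in endocardial-like cells. Libraries 1 to 4 gave 102, 91.6, 131 and 103 CPM of Thbs2 in fibroblast-like cells, all above the epicardial-like range of 11.9 to 59.3 CPM. Thbs3 stood at 37.7 CPM (36.0 to 39.4) in fibroblast-like cells, with 36.1, 40.1, 34.6 and 38.7 CPM in libraries 1 to 4, and these held 81.7% of its UMIs. Epicardial-like (16.4 CPM) and endocardial-like cells (13.8 CPM) came next for Thbs3, with overlapping ranges.

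Thbs4 was all but undetected, with 64 UMIs, of which 31 lay in fibroblast-like and 22 in endocardial-like cells, with 17 of those 22 in 1 cell. Its pentameric relative Comp was highest in endocardial-like cells. Comp stood there at 201 CPM (193 to 209), with 186, 151, 240 and 221 CPM in libraries 1 to 4, and 71.9% of its UMIs. Lymphatic-like cells followed at 52.5 CPM (34.0 to 77.6) and fibroblast-like cells at 12.2 CPM (11.2 to 13.2), and no library ranges overlapped between these 3 classes. Pericyte-like cells had no Comp UMI (up to 2.72 CPM allowed).

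Of the CCN genes, Ccn1 was highest in endocardial-like cells at 148 CPM (142 to 155), with 138, 172, 161 and 140 CPM in libraries 1 to 4. Epicardial-like cells held 97.7 CPM (84.7 to 112) and fibroblast-like cells 95.7 CPM (93.1 to 98.4), which did not differ beyond counting error (ratio 1.02, 0.882 to 1.17). The ranges of endocardial-like and epicardial-like cells overlapped through library 4, where epicardial-like cells held 160 CPM. Fibroblast-like cells held 57.2% of Ccn1 UMIs, and arterial-like (38.5 CPM) and capillary-like or general endothelial cells (24.1 CPM) were lower.

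Ccn2 was shared by 5 classes: Schwann-like cells at 217 CPM (168 to 277), pericyte-like at 160 CPM, fibroblast-like at 159 CPM, endocardial-like at 123 CPM and smooth muscle-like cells at 118 CPM. In Schwann-like cells libraries 1 to 4 gave 113, 323, 489 and 314 CPM, on 65 UMIs, and without library 1 the level was 338 CPM. In fibroblast-like cells they gave 179, 196, 81.1 and 110 CPM. The library ranges of all 5 overlapped their neighbours', so the order is not fixed beyond the spread over libraries. Fibroblast-like cells held 76.7% of Ccn2 UMIs. In NK-like cells all 25 Ccn2 UMIs lay in 1 cell.

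Ccn3 was highest in smooth muscle-like cells, which form the arterial wall, at 110 CPM (81.7 to 144), on 51 UMIs of which 1 cell held 47.1%. Without that cell the level was 59.0 CPM. Lymphatic-like (46.2 CPM), arterial-like (33.4 CPM) and fibroblast-like cells (18.2 CPM) followed. In arterial-like cells libraries 1 to 4 gave 62.2, 22.3, 8.79 and 34.4 CPM of Ccn3, so library 1 was 7.07 times library 3. Gja5, a connexin of larger arteries, stood at 162, 65.0, 86.1 and 156 CPM in the same cells. Hey1, another arterial marker, was instead lowest in library 1 and highest in library 3, at 136, 160, 215 and 163 CPM. Stmn2, a further arterial marker, stood at 766, 586, 687 and 676 CPM. The relation of these genes to the Ccn3 spread was not tested. Pericyte-like cells held 1 Ccn3 UMI, 0.00827 times (0.000205 to 0.0482) the smooth muscle-like level.

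Fibroblast-like cells were then set against all other cells. Of the 8 members that reached 10 CPM on either side, 5 were at least 2-fold higher, where 13% of the 10504 genes tested, 1364, were, and 1 was at least 2-fold lower, where 19.2% were. Of the 5, Thbs2, Thbs3 and Ccn3 reached the minimum only in fibroblast-like cells and so had to be higher there, and nothing is read from this count. Thbs2 stood at 102 CPM in fibroblast-like and 6.30 CPM in other cells, a ratio of 16.1 (14.8 to 17.6). Thbs3 was 8.06 times (7.27 to 8.96), Ccn2 5.94 times (5.68 to 6.22), Ccn3 3.28 times (2.94 to 3.65) and Ccn1 2.42 times (2.32 to 2.52) as high. The direction of Ccn3 turned with the clustering: the ratio was 0.715 at resolution 2 and 0.782 with doublets kept. Without library 2 the Ccn1 ratio was 1.88. Comp was lower, at 12.2 CPM against 30.4 CPM (ratio 0.400, 0.366 to 0.436). Postn (0.734) and Thbs1 (1.18) stayed within 2-fold, and Tnc and Thbs4 were under the minimum. Here the 704 unnamed cells count among the other cells. Set with the fibroblast-like cells instead, they turned the direction of Postn, to 84.5 CPM against 53.0 CPM (ratio 1.59, 1.53 to 1.66), and ended the call of Comp, at 15.8 CPM against 28.8 CPM (ratio 0.546, 0.505 to 0.590).

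Endocardial-like cells were set against the other endothelial-like cells, the capillary, arterial and lymphatic classes. The 6 members that reached 10 CPM were all at least 2-fold higher, where 11.8% of 9628 genes were; 5 of them passed only through endocardial-like cells and so had to be higher there. Postn stood at 315 CPM in endocardial-like and 1.95 CPM in other endothelial-like cells, a ratio of 162 (131 to 202). Comp stood at 201 and 1.38 CPM, a ratio of 145 (113 to 189), and Ccn2 at 123 and 5.04 CPM, a ratio of 24.3 (21.2 to 28.1). Thbs3 was 7.87 times, Thbs1 6.35 times and Ccn1, which passed on both sides, 5.64 times (5.24 to 6.07) as high. These ratios mostly reflect the large capillary and arterial classes. The 155 lymphatic-like cells alone held more Thbs1 (92.5 CPM) than endocardial-like cells (14.8 CPM). They also held Postn at 46.2 CPM, Comp at 52.5 CPM and Ccn2 at 54.7 CPM, closer to the endocardial-like levels. Of those under the minimum, Thbs2 stood at 5.58 and 1.73 CPM and Ccn3 at 3.91 and 8.55 CPM, and Tnc and Thbs4 were below 2 CPM in both.

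Endocardial-like cells formed 2 clusters. One of 726 cells was led by Cytl1, Ccdc141, Clu, Kcnc2 and Vwf, and one of 2212 cells by Npr3, H19, Tmem108, Igf2 and Plagl1. Of 7 members at 10 CPM or more, 2 were at least 2-fold higher in the Cytl1 Ccdc141 cluster (6.25% of 9483 genes were) and 2 lower (3.21% were). Thbs2 reached the minimum only in the Cytl1 Ccdc141 cluster, and Comp and Thbs3 only in the Npr3 H19 cluster, so the direction of these 3 was fixed by the minimum and nothing is read from the counts. Comp stood at 9.46 CPM in the Cytl1 Ccdc141 cluster and 266 CPM in the Npr3 H19 cluster, a ratio of 0.0356 (0.0239 to 0.0509). Libraries ranged from 5.36 to 15.5 CPM of Comp in the Cytl1 Ccdc141 cluster and from 225 to 302 CPM in the Npr3 H19 cluster, with no overlap. Thbs3 was lower (7.57 and 15.9 CPM), and Thbs1 (29.0 and 10.0 CPM) and Thbs2 (11.4 and 3.63 CPM) were higher. Postn (360 and 300 CPM, ratio 1.20), Ccn1 (124 and 157 CPM) and Ccn2 (122 and 123 CPM) stayed within 2-fold. Among the members tested, Comp had the widest ratio between the clusters.

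**Figure D3:**
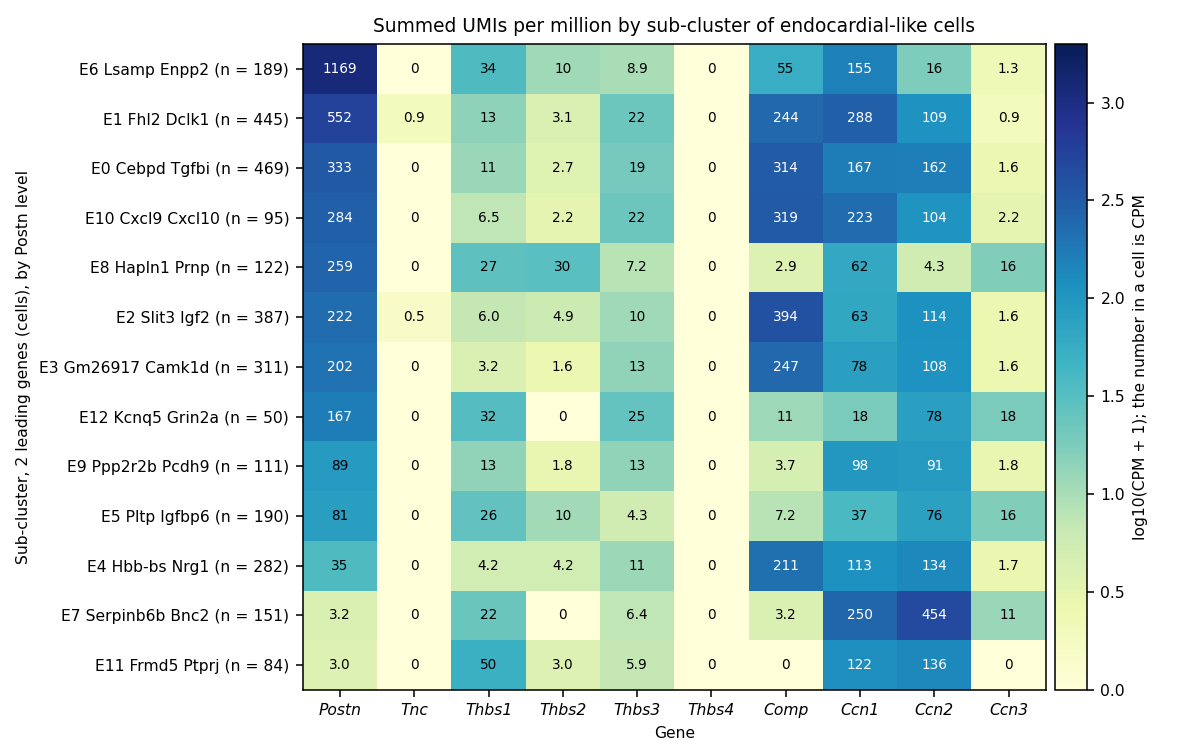
CPM of the 10 genes (columns) in the 13 sub-clusters of endocardial-like cells with 50 or more cells (rows, named by 2 leading genes, with cell numbers, ordered by Postn). Colour is log10(CPM + 1). Postn runs from 1169 CPM in E6 down to 3.21 and 2.96 CPM in E7 and E11, Comp peaks in E2 at 394 CPM, and Ccn2 peaks in E7 at 454 CPM.

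A finer division of the 2938 endocardial-like cells separated the members further. Sub-cluster E6 (189 cells, led by Lsamp, Enpp2, Foxp2, Pdgfra and Sdk1) held Postn at 1169 CPM (1095 to 1247), with 898, 1598, 1326 and 1026 CPM in libraries 1 to 4. The other endocardial-like cells held 258 CPM. Of 7 members at 10 CPM or more, 2 were at least 2-fold higher in E6, Postn (4.53 times) and Thbs1 (2.53 times), where 5.62% of genes were. Thbs1 in E6 rested largely on library 1, being 34.2 CPM in all and 15.7 CPM without that library. Comp (54.5 and 211 CPM) and Ccn2 (16.5 and 130 CPM) were lower there. The 7 fibroblast markers summed to 3548 CPM in E6 and 2119 CPM in the large sub-cluster E0, most of it Dcn, a small proteoglycan, with Tcf21 at 0 UMIs in E6. Pdgfra, a receptor that marks fibroblasts, stood at 320 CPM in E6. The part of fibroblast transcripts in the Postn level was not tested.

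In E1 (445 cells, led by Fhl2, Dclk1, Pde10a, Col18a1 and Kif26b) Postn stood at 552 CPM and Ccn1 at 288 CPM, with 258, 341, 547 and 242 CPM of Ccn1 in libraries 1 to 4. E6 and E1 together were 21.6% of endocardial-like cells and held 54.7% of their Postn UMIs. E7 (151 cells, led by Serpinb6b, Bnc2, Plac8, Lrg1 and Tox) held Ccn2 at 454 CPM (402 to 510) and Ccn1 at 250 CPM, which did not differ from E1 beyond counting error (ratio of E1 to E7 1.15, 0.967 to 1.38), with Postn and Comp at 3.21 CPM each, from 2 UMIs of each in 1 cell. Ccn2 in E7 was 356, 730, 219 and 443 CPM in libraries 1 to 4. Comp was highest in E2 (387 cells, led by Slit3, Igf2, Dpp4, Peg3 and Ednrb) at 394 CPM (366 to 424), with 318 to 453 CPM over the libraries. E4 (282 cells, led by Hbb-bs, Nrg1, Hba-a1, Hba-a2 and Hpgd) kept Comp at 211 CPM with Postn at 35.2 CPM. In E8 (122 cells, led by Hapln1, Prnp, Dkk2, Ptprr and Ccdc141) Postn stood at 259 CPM, but 1 cell held 45.6% of it, and libraries ranged from 23.2 to 433 CPM.

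**Figure D4:**
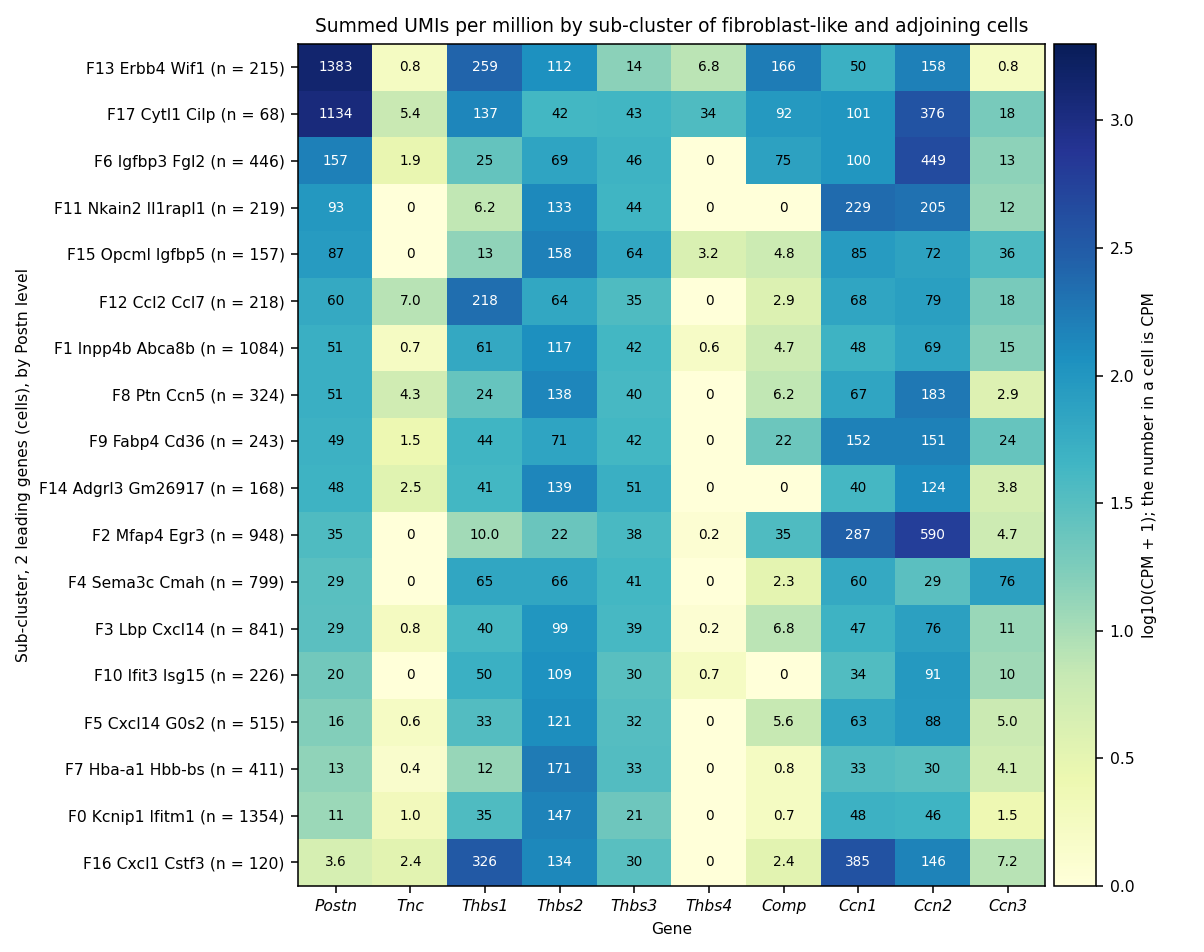
CPM of the 10 genes (columns) in the 18 sub-clusters with 50 or more cells among fibroblast-like and adjoining cells (rows, named by 2 leading genes, with cell numbers, ordered by Postn). Colour is log10(CPM + 1). Postn exceeds 1000 CPM in F13 and F17 and is 157 CPM or lower elsewhere, Ccn2 is highest in F2 and F6, Thbs1 in F16, F13 and F12, and Ccn3 in F4.

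For subtypes of fibroblasts, 7666 fibroblast-like cells and 704 unnamed cells whose best marker list was the fibroblast list were divided together, 8370 cells in all. Postn was concentrated in F13 (215 cells, led by Erbb4, Wif1, Prg4, Pdzrn4 and Clu) at 1383 CPM (1320 to 1448) and in F17 (68 cells, led by Cytl1, Cilp, Ltbp2, Atp6v0a4 and Cst6) at 1134 CPM (1047 to 1226). These 3.38% of cells held 53.1% of the Postn UMIs of the 8370 divided cells. Libraries 1 to 4 gave 1485, 1534, 1285 and 869 CPM in F13 and 967, 1210, 1262 and 1518 CPM in F17, all above every other sub-cluster's pooled level. Some of these rest on few cells: library 3 held 4 F13 and 3 F17 cells, and library 4 held 12 F17 cells. Of the F13 cells, 207 were unnamed in the main clustering and 149 came from library 1, and without that library F13 stood at 1132 CPM. Valve interstitial markers (Sox9, Scx, Prg4, Cpxm2 and Fmod) summed to 1205 CPM in F13, 475 CPM in F17 and 58.5 CPM in F0, the largest sub-cluster. Of the 5, 3 were at 2-fold or above in F13 and 1 in F17, and Prg4, a lubricating proteoglycan, made up 884 CPM of the sum in F13 and 269 CPM in F17, where Fmod was at 0 UMIs. Markers of activated fibroblasts summed to 830 CPM in F13, 991 CPM in F17 and 399 CPM in F0, with 4 of 8 at 2-fold or above in both F13 and F17, although Cthrc1, a gene of such cells, was at 0 UMIs in F17.

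F13 differed from the other cells in more than Postn. Of 8 members at 10 CPM or more, 3 were at least 2-fold higher, Postn (26.4 times), Comp (13.8 times) and Thbs1 (5.25 times), where 8.02% of genes were. Comp there was uneven, with 73.1, 536, 952 and 254 CPM in libraries 1 to 4, of which library 3 held 4 cells, and it was 166 CPM in all and 394 CPM without library 1. Thbs3 (13.6 and 37.5 CPM) and Ccn3 (0.754 and 17.9 CPM) were lower, Ccn3 having reached the minimum only in the other cells. F17 also held Ccn2 at 376 CPM. Its Thbs4, 34.3 CPM, was 19 UMIs in 5 cells of library 1, with none in libraries 2 to 4. Without F13 and F17 the Postn level of the divided cells was 41.1 CPM instead of 84.5 CPM. Within fibroblast-like cells, which hold 8 of the F13 and 66 of the F17 cells, it was 40.9 CPM instead of 52.6 CPM. The next level of Postn was 157 CPM in F6, and F0 and F16 had 10.8 and 3.59 CPM.

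Ccn2 and Ccn1 were both high in another subtype, F2, though neither was particular to it. Ccn1 was 385 CPM in F16 and 229 CPM in F11, and Ccn2 was 376 CPM in F17. F2 (948 cells, led by Mfap4, Egr3, Nr4a1, Ier3 and Nkain3) held Ccn2 at 590 CPM (571 to 609) and Ccn1 at 287 CPM (274 to 301). Of 8 members at 10 CPM or more, 3 were at least 2-fold higher in F2, Ccn2 (5.82 times), Ccn1 (4.14 times) and Comp (2.59 times), where 3.62% of genes were. Ccn2 in F2 stood at 561, 718, 438 and 487 CPM in libraries 1 to 4, and Ccn1 at 216, 475, 107 and 209 CPM, so library 2 was highest for both. Thbs1 (9.97 and 60.2 CPM), Thbs2 (22.3 and 112 CPM), Postn (35.2 and 90.8 CPM) and Ccn3 (4.66 and 19.1 CPM) were lower in F2, of which Thbs1 and Ccn3 reached the minimum only in the other cells. F6 (446 cells, led by Igfbp3, Fgl2, Sntg1, Sfrp2 and Cytl1) held Ccn2 at 449 CPM (424 to 475), with 414 to 502 CPM over the libraries. F2 and F6 were 16.7% of the divided cells and held 56.7% of the Ccn2 UMIs of those cells.

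The early response list was high in some of these subtypes. It stood at 7909 CPM in F2, 4132 CPM in F6, 15301 CPM in F16 and 1532 to 4117 CPM in the other sub-clusters with 50 or more cells. F16 (120 cells, led by Cxcl1, Cstf3, Btg2, 1200007C13Rik and Mt1, with 84 cells from library 1) held the highest Ccn1, 385 CPM (344 to 429), and the highest Thbs1, 326 CPM (289 to 367). Its Ccn2 was only 146 CPM. F2, second in early response, had the highest Ccn1 after F16, and its Thbs1, 9.97 CPM, was the lowest after F11 (6.24 CPM). The part of digestion in these levels was not tested.

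**Figure D5:**
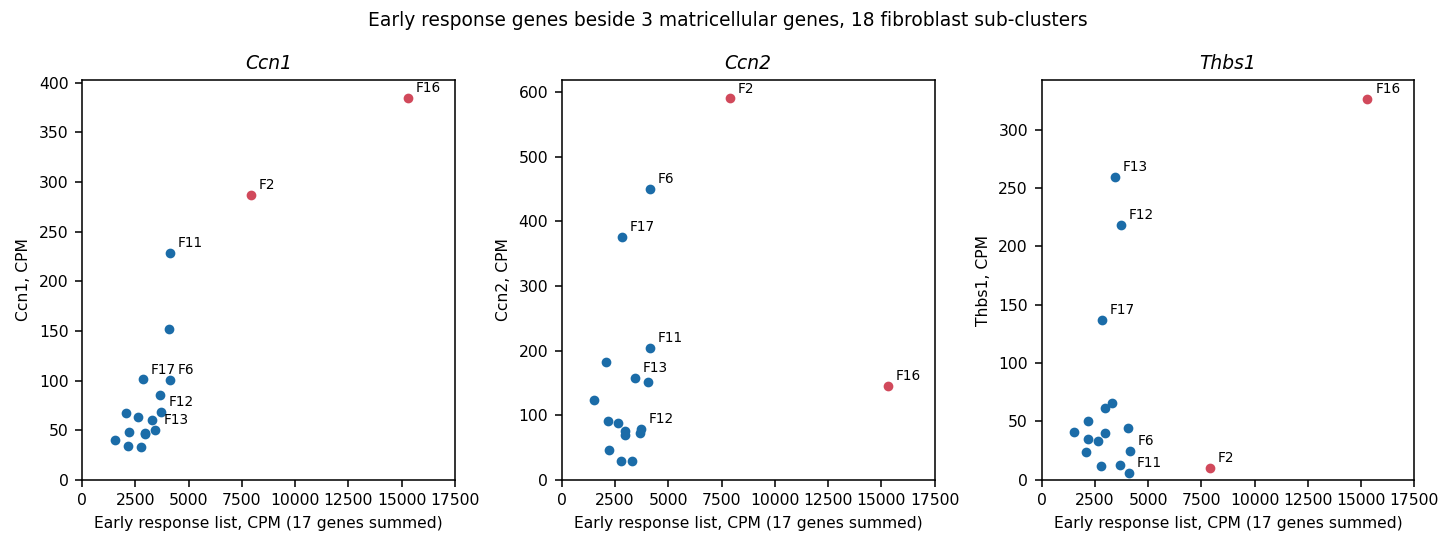
Summed CPM of the 17 early response genes (x axis) and CPM of Ccn1, Ccn2 and Thbs1 (y axis of each panel) in the 18 fibroblast sub-clusters with 50 or more cells; F2 and F16 are in red. Ccn1 is highest in F16 (385 CPM) and F2 (287 CPM), the sub-clusters with the highest early response CPM. By contrast, Ccn2 is 146 CPM in F16 and Thbs1 is 9.97 CPM in F2.

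Thbs1 was also high in F12, though below F16 and F13, and Ccn3 was highest in F4. F12 (218 cells, led by Ccl2, Ccl7, Cdkn1a, Tagln and Tnfrsf12a) held Thbs1 at 218 CPM (196 to 241), with 287, 205, 176 and 111 CPM in libraries 1 to 4. F12, F13 and F16 were 6.61% of the divided cells and held 33.1% of the Thbs1 UMIs of those cells. F4 (799 cells, led by Sema3c, Cmah, Limch1, Efhd1 and Tmem100, and at 2-fold or above in all 5 of Pi16, Cd248, Dpp4, Sema3c and Ackr3) held Ccn3 at 76.3 CPM (69.8 to 83.3). F15, also at 2-fold or above in all 5, was next at 35.8 CPM (26.1 to 47.9), and the library ranges of F4 and F15 did not overlap. Libraries 1 to 4 gave 61.5, 102, 97.5 and 64.4 CPM in F4, and F4 held 52.3% of Ccn3 UMIs of these cells. Thbs2 was spread more widely, from 22.3 CPM in F2 to 171 CPM in F7 (411 cells, led by Hba-a1, Hbb-bs, Cxcl14, Chrm3 and Penk). Thbs3 ranged from 13.6 CPM in F13 to 64.4 CPM in F15.

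The libraries differed for some members within a class. In fibroblast-like cells, 4 of the 8 members with at least 20 UMIs per library on average differed 2-fold or more between the highest and lowest library, where 7.05% of 12679 genes did. These were Comp (4.18 times, library 2 over library 3), Ccn2 (2.41 times, library 2 over library 3), Ccn1 (2.40 times, library 2 over library 4) and Thbs1 (2.19 times, library 1 over library 4). Postn (1.24 times) and Thbs3 (1.16 times) lay near the median of these genes, 1.23 times. With the 704 unnamed cells added, Postn was less even, at 107, 76.0, 61.8 and 62.8 CPM in libraries 1 to 4. F2 made up 13.5%, 12.3%, 2.84% and 9.62% of the divided cells in libraries 1 to 4. Without F2, Ccn2 in fibroblast-like cells ran from 68.6 to 123 CPM over the libraries, and Ccn1 from 38.1 to 82.4 CPM. Within F2 itself Ccn1 ran from 107 to 475 CPM. The part of F2 in these spreads was not tested. In endocardial-like cells 2 of 6 members passed the same mark, Thbs1 (3.59 times) and Ccn2 (2.21 times), where 6.43% of genes did. Since each library may be of either group, these spreads are not tied to stroke.

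The genes most alike in pattern were ranked by Pearson correlation of log2(CPM + 10) across the 18 classes, which share libraries and differ in depth. Postn was most like Ccn2 (r = 0.93), Sgcb (0.92) and 1110046J04Rik (0.91). Thbs2 was most like Mrc2 (0.97), Serping1 (0.96) and Pcolce (0.94), and Thbs3 most like Dcn (0.95), Morf4l2 (0.94) and Mfap5 (0.94). Comp was most like Plvap (0.98), Col23a1 (0.94) and Nrxn3 (0.93), and Ccn1 most like Peg3 (0.95), Tceal9 (0.95) and Maged1 (0.95). Thbs1 was most like Gm13986 (0.91), F5 (0.90) and Padi4 (0.89). Gm13986, annotated as a processed transcript, lies on the opposite strand (chr2:117857291-118111202) and its start lies 674 bases before that of Thbs1, so the pair is transcribed in opposite directions, and it stood at 294 CPM in serous-cavity macrophage-like cells.

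Partners of these proteins had their own patterns. Of 16 other matricellular genes, 12 reached 10 CPM in a class, and 3 of these were highest in fibroblast-like cells: Smoc2 (956 CPM), Tnxb (463 CPM) and Ccn5 (63.9 CPM). Sparc was highest in Schwann-like cells (6995 CPM), Vtn in pericyte-like (1543 CPM) and Smoc1 in endocardial-like cells (313 CPM). Of the 12 receptors and partners of thrombospondins and CCN proteins, Cd36 was highest in capillary-like or general endothelial cells (3728 CPM), and Lrp1 in fibroblast-like cells (591 CPM). Of the 11 periostin and tenascin partners, 6 were highest in fibroblast-like cells, among them Col1a2 (885 CPM) and Bmp1 (91.1 CPM), and Fn1 in serous-cavity macrophage-like cells (7331 CPM). Vtn, Cd36 and Fn1 are each among the markers that named the class where they peaked. The peaks of these genes are therefore not independent of the naming.

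Of the 12 YAP and TEAD genes, 3 were highest in endocardial-like cells, Amotl2 (105 CPM), Yap1 (64.2 CPM) and Tead4 (41.0 CPM), 3 in pericyte-like cells, Amotl1 (249 CPM), Ajuba (90.8 CPM) and Tead3 (12.7 CPM), and 1 in fibroblast-like cells. Of the 8 SRF and MRTF genes 5 were highest in smooth muscle-like cells, led by Acta2 (5892 CPM). Acta2, Tagln and Cnn1 are among the markers that named this class, so their peaks there are not independent of the naming. Of 11 TGF-beta genes none was highest in fibroblast-like or endocardial-like cells, and 2 were in serous-cavity macrophage-like cells, Ltbp1 (1398 CPM) and Tgfb2 (364 CPM). These counts describe where each gene peaked, and no list was tested.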

How the data were processed

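The authors deposited 1 table of raw UMI counts; per the submitters' processing notes Cell Ranger 7.1.0 and build mm10 were used, and how libraries were joined is not stated there. Barcodes with at least 500 UMIs, 250 genes and at most 15% mitochondrial UMIs were kept (821 failed), and 1445 doublets were removed per library with Scrublet in scanpy 1.11.5. In library 3 the automatic threshold marked 1 barcode, and was replaced by the other libraries' median. Cells were clustered on 2000 variable genes without the members and other listed genes (30 components, 15 neighbours, leidenalg 0.10.2, resolution 1, no correction between libraries) and named from 25 marker lists. Clusters that mixed unrelated markers were split again, by a rule set after the clusters had been seen. Intervals are exact Poisson (CPM), exact binomial (shares) and exact conditional binomial (ratios), and cover counting error only. The scripts were tested on simulated data. A count of 0 allows up to 3 UMIs.

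The planned test of stroke against control was not run, since barcodes are not tied to samples. All 10 members are described; likeness was ranked for members with 100 UMIs in their highest class, and 5 leading genes are named for each described cluster. One listed gene is not reported here. The members, lists and rules were chosen with earlier results of these data known. Alternatives tried were a stricter cell filter, doublets kept, resolution 2, no genes left out, equal cell weights, thinning and leaving out each library.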

Additional observations from a re-analysis of the deposited data

How the results depend on the processing

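Under the alternatives run, the number of members whose highest class was fibroblast-like was 2 to 3 (2 in the main setting), and the number highest in an endothelial class 3 to 4 (3). The 3 in an endothelial class include Thbs4, at 1.75 CPM in endocardial-like cells on 22 UMIs, most of them in 1 cell. Members at 2-fold or above numbered 4 to 6 in fibroblast-like cells (5) and 6 to 7 in endocardial-like cells (6). In the main setting 13% and 11.8% of all genes tested were. No share over all genes is given for the highest-class counts or for the alternatives, and nothing is read from these counts. In fibroblast-like cells Ccn3 turned below 1 at resolution 2 (0.715) and with doublets kept (0.782), Ccn1 fell under 2-fold without library 2 (1.88), and Thbs1 passed 2-fold with cells weighted equally (2.29) and thinned (2.10); the cause was not tested. With 704 unnamed fibroblast-adjoining cells counted as fibroblast-like, 5 members were at 2-fold or above, Postn turned above 1 (1.59) and Comp (0.546) was no longer 2-fold lower. Ccn1, Ccn3, Comp, Postn, Thbs2 and Thbs3 kept their highest class in 12 of 12 alternatives. Ccn2 did in 11, being highest in fibroblast-like cells (187 CPM) with doublets kept. Thbs1 did in 10: without library 2 (426 CPM) and without serous-cavity macrophage-like cells (417 CPM), classical monocyte-like cells were highest. Thbs4 did in 10 and Tnc in 7. Over the members and alternatives, 92 levels in the highest class stayed within the counting interval and 23 did not, and 103 log2 ratios to the next class did and 12 did not. Medians over libraries, the setting with the adjoining cells, the setting without serous-cavity macrophage-like cells, and the sub-cluster and single-cell omissions in the report were chosen after seeing the data. No paired analysis was possible because the barcodes of the libraries are not tied to samples. Depth limits Tnc and Thbs4, and few cells limit Schwann-like, smooth muscle-like and lymphatic-like levels.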
